A study of Mus musculus with 2 samples.

Results

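The Slc25 family is the main set of carriers in the inner mitochondrial membrane, and its 47 protein-coding members are described here in mouse megakaryocyte-erythroid progenitors (MEP), bone marrow cells from which red cells and the platelet-forming megakaryocytes develop. Members were the genes typed protein-coding in GENCODE M21 whose symbol begins with Slc25a and a digit, 47 of 21474 protein-coding genes. Slc25a37, Slc25a28 and Slc25a38 are among them. The choice used symbols and gene types only, and no measured value. The libraries form 1 group of 2 biological replicates of poly(A)-selected RNA, labelled as primary cells of adult female C57BL/6J mice aged 5 weeks, with CD34- in the description. Both replicates carry the same donor identifier and no label says that they came from separate animals, so the spread between them may be partly technical. There is no second condition, hence no test, and differences are described by size rules and by the authors' intervals.

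A typical Slc25 carrier is a small membrane protein that moves 1 kind of solute, or exchanges a pair of them, between the cytosol and the mitochondrial matrix. The family brings ADP and phosphate in for ATP synthesis, exchanges citrate, malate and other carboxylates, and moves amino acids, coenzymes and iron. In developing red cells the last of these is prominent, because heme synthesis begins in the matrix from glycine and succinyl-CoA and ends there with the insertion of iron. Mitoferrin-1 (Slc25a37) and mitoferrin-2 (Slc25a28) bring iron in, and Slc25a38 is known as a glycine importer whose human counterpart is mutated in a congenital sideroblastic anemia.

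Values are TPM, a transcript abundance that is scaled to the same total in each library. They are corrected for estimated transcript length, the usual basis for comparing genes. On short transcript models few counts give a high TPM (140 and 118 counts gave Slc25a37-202, of 342 bases, 10.5 and 11.3 TPM). Whether such values reflect transcript use or the length estimate was not tested, which bears on gene TPM, coding shares and pair ratios alike. Replicate 1 had 79539457 counts on annotated genes and replicate 2 had 65305321. A gene without counts could thus have reached 0.0377 CPM (counts scaled to a library of 1000000) in replicate 1 and 0.0459 CPM in replicate 2, by counting error alone. Of 12 erythroid markers 10 were at a TPM of 1 or more in both libraries, with summed levels of 469 and 573 TPM in replicates 1 and 2, and of 10 megakaryocyte markers 8 were, with 242 and 391 TPM. Gp6 was at 0 in both. All 13 granulocyte and monocyte markers were also at that level, with summed levels of 32577 and 18703 TPM in replicates 1 and 2, as were 7 of 8 B cell markers (103 and 47.3 TPM), 1 of 7 T and NK cell markers (35.5 and 18.9 TPM) and 5 of 8 stem cell markers (168 and 274 TPM). Cd34 itself was at 69.1 and 91.9 TPM. In such bulk libraries, more cells of a type and more RNA per cell cannot be told apart, and what share of the carriers' RNA came from other cell types was not tested.

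Several carriers were represented by more than 1 kind of transcript. Stretches that differ between annotated transcripts of Slc25a3, Slc25a38, Slc25a37 and Slc25a22 are shown first, since these transcripts are described below. The transcripts differ in other parts as well, and reads over the printed stretches alone were not counted. Slc25a3, the mitochondrial phosphate carrier, has a pair of alternative coding exons on the minus strand of chromosome 10 (GRCm38, GENCODE M21 transcripts). Transcript Slc25a3-206 uses the exon of 125 bases at chr10:91122207-91122331, and Slc25a3-201 the exon of 122 bases at chr10:91121922-91122043. Capitals mark the bases that differ when both are aligned end to end; 77 of 125 aligned positions are identical (61.6%).
Slc25a3-206 exon: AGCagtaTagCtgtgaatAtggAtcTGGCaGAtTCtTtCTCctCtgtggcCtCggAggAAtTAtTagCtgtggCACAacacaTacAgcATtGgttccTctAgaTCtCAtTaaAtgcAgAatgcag
Slc25a3-201 exon: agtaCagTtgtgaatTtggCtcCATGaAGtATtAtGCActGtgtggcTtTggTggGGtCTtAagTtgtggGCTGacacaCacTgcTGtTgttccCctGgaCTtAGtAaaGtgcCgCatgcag

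The other 3 stretches each carry a stop codon, in capitals, that ends the annotated reading frame early. Slc25a38-206 has an exon of 123 bases on the plus strand at chr9:120119883-120120005 that the full-length Slc25a38-201 lacks. Slc25a37-204 does not splice at the donor site that Slc25a37-201 uses after the same exon and runs 511 bases further; the bases from that site to 30 past the stop lie on the minus strand at chr14:69249254-69249393. Slc25a22-204 starts an inner exon 19 bases earlier than Slc25a22-209 does, on the minus strand at chr7:141432140-141432158.
Slc25a38-206 exon: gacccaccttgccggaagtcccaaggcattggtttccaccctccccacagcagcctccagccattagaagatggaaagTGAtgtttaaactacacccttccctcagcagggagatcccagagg
Slc25a37-204 extension: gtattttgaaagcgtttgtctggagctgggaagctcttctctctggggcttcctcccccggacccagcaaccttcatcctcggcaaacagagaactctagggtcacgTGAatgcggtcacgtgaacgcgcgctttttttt
Slc25a22-204 extension: tcctgcccccgctctaTAG

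The family as a whole was broadly expressed, at a moderate level. A TPM of 1 or more in both libraries was reached by 34 of 47 members (72.3%), against 46.9% of all protein-coding genes. The median member was at 6.83 TPM in replicate 1 and 8.04 TPM in replicate 2, where the median protein-coding gene was at 0.67 and 0.75 TPM. Among genes at 1 TPM or more in both libraries the order was the other way round, with a median of 11.6 TPM for 34 carriers and 16.4 TPM for 10061 protein-coding genes. Other mitochondrial gene groups stood higher: the 85 nuclear-encoded respiratory chain and ATP synthase subunits had a median of 109 TPM, 25 Timm and Tomm import genes 57.5 TPM and 77 mitochondrial ribosomal proteins 41.9 TPM. Detection was also higher in these groups than among the carriers, at 95.3%, 88.0% and 97.4% in that order. The 324 genes of other Slc families, most of which act at other membranes, had a median of 0.318 TPM, and 42.0% were detected. The carriers held 0.154% of all TPM in each library.

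A few members carried most of that share. Slc25a3 alone held 29.9% ± 2.40 of the family's TPM, the top 3 members 56.1% ± 0.451 and the top 10 members 82.6% ± 0.704 (SD, n = 2). Below these 3, 15 members averaged 10 to under 100 TPM, 18 averaged 1 to under 10 TPM, and 9 were above 0 but under 1 TPM. Slc25a31 and Slc25a54 had no counts in either library. When all 47 were put in order of mean TPM, 18 of 46 neighbouring pairs had values that did not overlap over the 2 libraries. These included the top of the order, Slc25a3 above Slc25a39, Slc25a1, Slc25a22 and then Slc25a11, whereas Slc25a11, Slc25a28, Slc25a38 and Slc25a10 followed with overlap from each to the next.

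**Figure D1:**
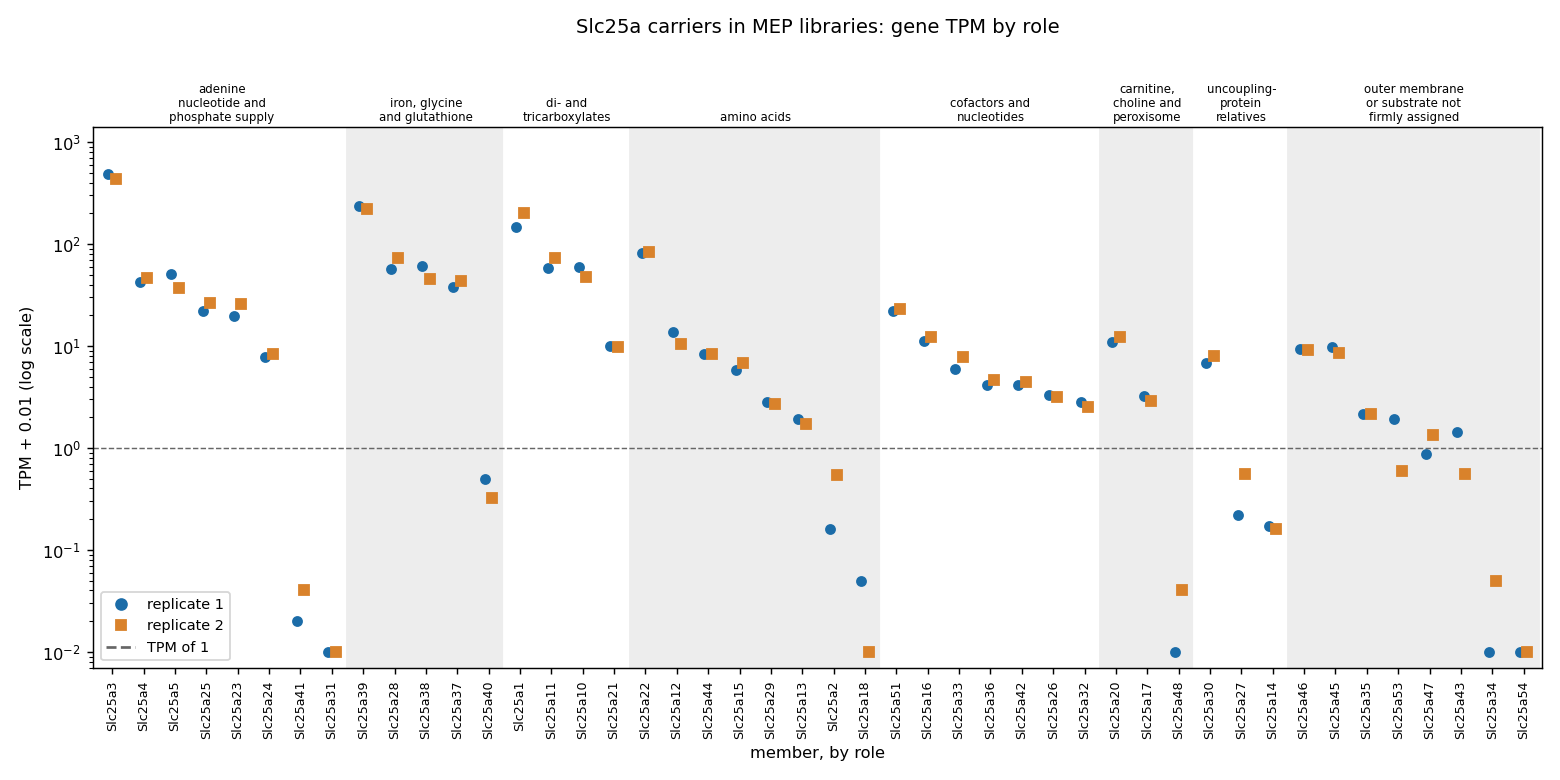
Gene TPM plus 0.01 of 46 Slc25a carriers on a log axis, grouped by role and ordered by mean within a role; circles are replicate 1, squares replicate 2, and the dashed line is a TPM of 1. Slc25a3 stands highest at 488 and 435 TPM, and in the groups for carboxylates and for cofactors every member shown lies above the line in both libraries.

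The carriers that serve ATP synthesis held 39.2% ± 2.36 (SD, n = 2) of the family's TPM. Slc25a3 (ENSMUSG00000061904.8, chromosome 10, 91116574 to 91124059), which brings in phosphate, was at 488 TPM in replicate 1 and 435 TPM in replicate 2. The ADP/ATP carriers stood well below it: Slc25a4, the form of heart and muscle, was at 42.3 and 46.3 TPM, and Slc25a5, the form of proliferating cells, at 51.0 and 36.8 TPM. Neither ADP/ATP carrier was the higher in both libraries. Slc25a31, the ADP/ATP carrier of testis, had 0 counts. Of the calcium-regulated ATP-Mg/phosphate carriers, which set the size of the adenine nucleotide pool, Slc25a25 was at 21.8 and 26.1 TPM and Slc25a23 at 19.7 and 25.9 TPM. Slc25a24 was lower, at 7.70 and 8.40 TPM, which was 2.96-fold below Slc25a25 and 2.80-fold below Slc25a23. Slc25a41, a short relative of these, had 1 and 2 counts.

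In TPM, the level of Slc25a3 rested mainly on transcripts with either of the alternative exons shown above. Transcripts with the 201 exon summed to 234 TPM in replicate 1 and 241 TPM in replicate 2. Slc25a3-206, the only transcript with the other exon, was at 193 and 110 TPM. The 206 exon thus held 45.3% and 31.2% of the transcripts that use either, and the 201 exon was the more abundant in both libraries. In human, SLC25A3 has a pair of alternative exons, of which one is used chiefly in heart and skeletal muscle and the other in most tissues; which mouse exon corresponds to which was not determined here. A retained-intron transcript of 4039 bases, Slc25a3-208, was counted with neither exon and added 59.6 and 84.1 TPM. In counts it weighed more, with 15385 in replicate 1 and 17315 in replicate 2. Slc25a3-201 had 21110 and 17256 counts and Slc25a3-206 had 15362 and 6930, so Slc25a3-208 was the highest of these in replicate 2.

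Carriers of iron, glycine and glutathione held 25.2% ± 0.458 (SD, n = 2) of the family's TPM, and 4 of the 5 were at 38 TPM or more in both libraries. Slc25a39 (ENSMUSG00000018677.5, chromosome 11, 102402985 to 102407946), known to be needed for glutathione uptake, was the second most abundant member, at 236 and 222 TPM. Its close relative Slc25a40 was at 0.49 and 0.31 TPM, from 85 and 43 counts, so that Slc25a39 exceeded it 573-fold with separate intervals in each library. That is 9.16 on the log2 scale, which was 8.22 in counts and 7.36 with a pseudocount of 1. Slc25a28, mitoferrin-2, was at 56.8 TPM in replicate 1 and 72.5 TPM in replicate 2. Slc25a37, mitoferrin-1, which in mouse and zebrafish supplies the iron of maturing red cells, was at 38.1 and 42.8 TPM. Slc25a28 was the higher mitoferrin in both libraries, by 0.67 ± 0.13 on the log2 scale (SD, n = 2), under the 2-fold rule. The authors' intervals for Slc25a37 were wide, 27.2 to 48.3 TPM and 32.7 to 55.4 TPM. Of the distinct 50-base words in its transcripts 6.99% also occur in other genes, 424 words of them in Gm16867, which was listed at 14.3 and 15.0 TPM. Without correction for length, in counts, the mitoferrins differed by only 0.03. The glycine importer Slc25a38 was at 61.4 and 45.4 TPM, above Slc25a37 in each library but within its interval in replicate 2. In counts the order was the other way round, with 3840 and 2764 for Slc25a38 and 5173 and 5002 for Slc25a37.

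In TPM, much of the Slc25a37 and Slc25a38 signal was assigned to transcripts whose annotated reading frame is cut short. Slc25a37-204, which holds the extension shown above and is typed as a target of nonsense-mediated decay (the pathway that degrades transcripts with early stops), was at 19.4 and 19.3 TPM. The only full-length coding transcript, Slc25a37-201, was at 6.84 TPM in replicate 1 and 10.2 TPM in replicate 2. In counts Slc25a37-204 had 2657 and 2112 and Slc25a37-201 had 1826 and 2180, so Slc25a37-201 was the higher in replicate 2. A further 10.5 and 11.3 TPM went to Slc25a37-202, an annotated coding fragment of 342 bases. For Slc25a38 the full-length Slc25a38-201 was the most abundant, at 24.7 and 24.4 TPM, and Slc25a38-206, with the extra exon, followed at 19.5 and 17.2 TPM. In counts the gap was wider, with 2698 and 2121 for Slc25a38-201 against 700 and 489 for Slc25a38-206, a model of 682 bases. Slc25a38-204, a non-coding transcript, was at 13.6 TPM in replicate 1 and 0 TPM in replicate 2, which is most of the difference in gene TPM between the libraries. Slc25a28 has a single transcript in the deposited tables, typed protein-coding. Leaving out other types could thus lower only Slc25a37 of the mitoferrins. With protein-coding transcripts alone, an alternative chosen after seeing the data, Slc25a28 exceeded Slc25a37 by 1.73 on the log2 scale. That is over 2-fold, by sign and size only, without the interval rule.

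**Figure D2:**
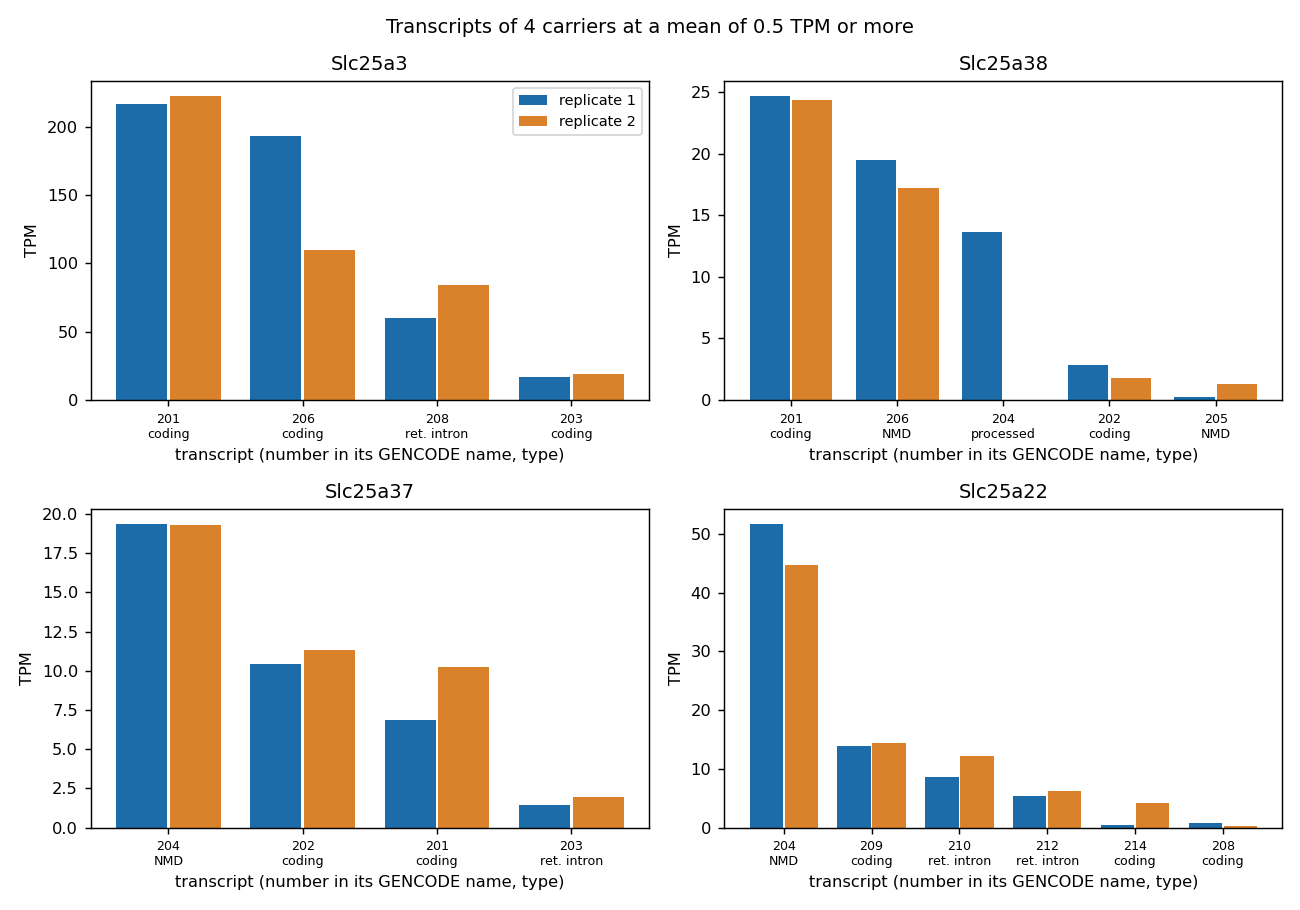
TPM of each transcript at a mean of 0.5 TPM or more for Slc25a3, Slc25a38, Slc25a37 and Slc25a22, with the number from its name and its annotated type; blue bars are replicate 1 and orange bars replicate 2. In Slc25a37 and Slc25a22 the tallest bar in both libraries is a transcript typed for nonsense-mediated decay, at 19.4 and 19.3 TPM and at 51.7 and 44.7 TPM.

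Genes around these carriers in heme and iron-sulfur synthesis were expressed in most cases, apart from the erythroid form of the initiating enzyme. Of 9 heme synthesis genes 8 were detected, with a median of 41.2 TPM. Alas1, the widely expressed enzyme that condenses glycine with succinyl-CoA, was at 161 and 81.1 TPM, and Alas2, its erythroid form, at 0.35 and 0.42 TPM. Fech, which inserts iron at the last step, was at 25.0 and 26.2 TPM. All 10 matched genes of iron-sulfur cluster assembly were detected, with a median of 47.7 TPM, and Glrx5, which passes on assembled clusters, was highest at 215 and 239 TPM. Abcb10, a transporter known to stabilise mitoferrin-1, was at 15.6 and 13.7 TPM, and Tmem14c, which handles the porphyrin precursor in red cells, at 169 and 149 TPM.

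All 4 carriers of di- and tricarboxylates were detected, and together they held 19.7% ± 2.72 (SD, n = 2) of the family's TPM. The citrate carrier Slc25a1 (ENSMUSG00000003528.10, chromosome 16, 17925223 to 17928219), which exports citrate for fatty acid and sterol synthesis, was at 146 TPM in replicate 1 and 203 TPM in replicate 2. That gap was not seen in counts, which differed by 0.06 on the log2 scale after TMM scaling, replicate 1 over replicate 2. The coding Slc25a1-201 was at 116 and 105 TPM, and the gap lay in Slc25a1-205 and Slc25a1-204, retained-intron transcripts of 460 and 495 bases, the first of which was at 8.80 and 55.9 TPM. The 2-oxoglutarate/malate carrier Slc25a11 was at 58.5 and 73.4 TPM, and the dicarboxylate carrier Slc25a10 at 59.3 and 47.3 TPM, so neither was the higher in both libraries; in counts Slc25a10 was the higher in both, with 7303 and 4608 against 3486 and 2599. In Slc25a11 a retained-intron transcript of 531 bases, Slc25a11-205, led in TPM with 33.1 and 55.6, against 25.2 and 17.6 for the coding Slc25a11-201. In counts Slc25a11-201 was the higher in both libraries, with 2625 and 1460 against 858 and 1136. The exons of Slc25a11 overlap those of Rnf167 on the opposite strand (79.4 and 82.1 TPM); no source used here states how strands were handled, so reads from this overlap cannot be told apart. Slc25a21, the oxodicarboxylate carrier, was at 9.99 and 9.80 TPM.

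Amino acid carriers held 7.41% of the family's TPM on average over the libraries, and most of that was Slc25a22. The glutamate carrier Slc25a22 (ENSMUSG00000019082.13, chromosome 7, 141429744 to 141437892) was at 81.5 and 83.7 TPM. Its relative Slc25a18 had 3 counts in replicate 1 and 0 in replicate 2, too few for a fold. Slc25a22-204, which carries the early stop shown above, was at 51.7 and 44.7 TPM. The coding transcript with the highest level, Slc25a22-209 (909 bases), was at 13.9 and 14.3 TPM. Slc25a22-203, a coding transcript of 2556 bases, was at 0.30 and 0.58 TPM, and the coding Slc25a22-201 and Slc25a22-202 were at 0. The aspartate/glutamate carrier Slc25a12 of the malate-aspartate shuttle was at 13.8 and 10.4 TPM, and its counterpart Slc25a13, citrin, was 6.60-fold lower at 1.90 and 1.72 TPM. Slc25a12-207, typed for nonsense-mediated decay, held 77.8% and 67.9% of the Slc25a12 level, and the coding Slc25a12-206 was at 2.00 and 1.23 TPM. In protein-coding transcripts alone Slc25a13 exceeded Slc25a12 by 0.20 on the log2 scale, with a different order in each library. The ornithine carrier Slc25a15 was at 5.79 and 6.79 TPM and the basic amino acid carrier Slc25a29 at 2.81 and 2.66 TPM, a difference of 2.29-fold. Slc25a44, a carrier of branched-chain amino acids, was at 8.38 and 8.32 TPM, and Slc25a2, a second ornithine carrier, at 0.15 and 0.53 TPM.

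All 8 carriers of cofactors and nucleotides were detected, at moderate to low levels. The NAD+ carrier Slc25a51 was at 22.1 and 23.1 TPM. Slc25a16, which is linked to coenzyme A in mitochondria, was at 11.2 and 12.1 TPM, and the coenzyme A carrier Slc25a42 at 4.17 and 4.44 TPM. That difference was 2.70-fold per length, and 0.25 on the log2 scale in counts not corrected for length. The pyrimidine nucleotide carriers Slc25a33 (5.92 and 7.80 TPM) and Slc25a36 (4.13 and 4.64 TPM) differed by less than 2-fold, and Slc25a36 had the more counts. Slc25a26, which imports S-adenosylmethionine, and Slc25a32, the folate and FAD carrier, were each between 2.50 and 3.29 TPM.

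The remaining carriers were low, with a few exceptions. Slc25a20, which brings in acylcarnitines for fatty acid oxidation, was at 11.0 and 12.1 TPM, the peroxisomal carrier Slc25a17 at 3.19 and 2.87 TPM, and the choline carrier Slc25a48 had 0 and 5 counts. Of the relatives of the uncoupling proteins, Slc25a30 was at 6.83 and 8.04 TPM and exceeded Slc25a14 (0.16 and 0.15 TPM, from 15 and 11 counts). The log2 ratio of Slc25a14 to Slc25a30 was -5.49, but -4.61 in the authors' posterior mean TPM and -2.86 with a pseudocount of 1, so its size is uncertain. Slc25a27 was at 0.21 and 0.54 TPM. Slc25a46, a protein of the outer membrane that acts in mitochondrial shape, was at 9.42 and 9.19 TPM, and Slc25a45 at 9.71 and 8.45 TPM. Slc25a35 was at 2.16 and 2.13 TPM, but 25.0% of its 50-base words occur in other genes, chiefly Rangrf, which overlaps it on the opposite strand (15.9 and 17.4 TPM), so its own level is uncertain. Its relative Slc25a34 had 0 and 5 counts. Slc25a53, Slc25a47 and Slc25a43 each reached 1 TPM in only 1 library.

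Family members under other symbols, which the choice by symbol left out, included a gene above every Slc25a member. Slc25a3 was at 488 TPM in replicate 1 and 435 TPM in replicate 2, and Ucp2, an uncoupling protein found in blood and immune cells, at 896 and 768 TPM. Ucp1, the uncoupling protein of brown fat, had no signal, and Ucp3 was at 0 and 0.11 TPM. Mtch1, a divergent relative in the outer membrane, was at 155 and 137 TPM and Mtch2 at 11.1 and 10.4 TPM. Of 19 other mitochondrial transporters 18 were detected, with a median of 24.9 TPM; the outer membrane channel Vdac2 was at 532 and 431 TPM, and the pyruvate carrier subunits Mpc2 and Mpc1 at 89.3 and 96.6 TPM and at 39.9 and 36.7 TPM.

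Related carriers were set against each other in 14 pairs, and in 9 of them the same gene led in both libraries by over 2-fold with separate intervals. The leaders were Slc25a39 over Slc25a40, Slc25a12 over Slc25a13, Slc25a22 over Slc25a18, Slc25a25 and Slc25a23 over Slc25a24, Slc25a16 over Slc25a42, Slc25a15 over Slc25a29, Slc25a30 over Slc25a14 and Slc25a35 over Slc25a34. The lower genes Slc25a18 and Slc25a34 had 0 to 5 counts in each library, so the size of those leads is uncertain. The level of Slc25a35 is itself uncertain, as stated above. The unsettled pairs were the ADP/ATP carriers, the mitoferrins, Slc25a38 and Slc25a37, Slc25a11 and Slc25a10, and the pyrimidine nucleotide carriers. Protein-coding transcripts alone gave 11 pairs by sign and size only, without the interval rule. The pair of Slc25a12 and Slc25a13 was not among them, while the ADP/ATP carriers and the mitoferrins were. So was Slc25a10 over Slc25a11, whose log2 ratio (Slc25a11 to Slc25a10) was -1.17 and -1.33. The intervals of Slc25a10 and Slc25a11 in gene TPM overlapped in replicate 1. The log2 ratio of Slc25a5 to Slc25a4 was 0.27 and -0.33 in gene TPM, and 2.74 and 2.16 in coding transcripts. Slc25a5-201, a coding transcript, was at 49.9 and 35.9 TPM, whereas the coding Slc25a4-201 was at 7.47 and 8.02 TPM and a retained-intron transcript, Slc25a4-202, at 34.8 and 38.3 TPM. Slc25a5 has several processed pseudogenes, and 33.8% of its 50-base words occur in other genes. Of these, 7 share 20 or more words and have values, each listed at 0.03 TPM or less.

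**Figure D3:**
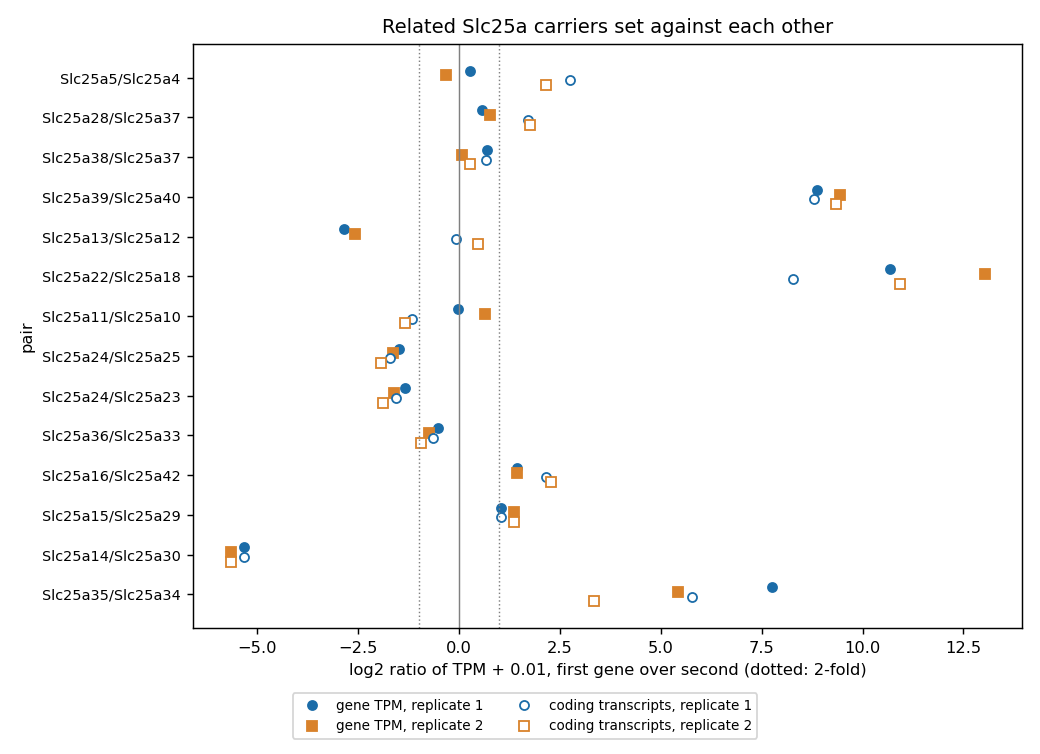
The log2 ratio of TPM plus 0.01 in 14 pairs of related carriers, first gene over second; filled symbols use gene TPM and open symbols protein-coding transcripts alone, circles are replicate 1 and squares replicate 2, and dotted lines mark 2-fold. The open symbols of Slc25a5/Slc25a4 lie at 2.74 and 2.16, where the filled ones lie at 0.27 and -0.33.

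The share of coding transcripts varied widely among the carriers, but no more of them had low shares than protein-coding genes at large. Among 26 members at a mean of 5 TPM or more, coding transcripts held under 50% of the level in 5 (19.2%), against 21.4% of all protein-coding genes at that level. These were Slc25a12 at 13.2% ± 1.92, Slc25a4 at 17.5% ± 0.256, Slc25a22, Slc25a11 and Slc25a37 (SD, n = 2). The median share was 97.9% for the carriers and 98.5% for all such genes. Of 21 members at that level with several transcripts, 20 had their most abundant transcript in common between the libraries, against 90.6% of genes. The exception was Slc25a45, where Slc25a45-206 led in replicate 1 with 44.8% and Slc25a45-201 in replicate 2 with 35.0%. At a mean of 1 TPM or more, 24 of 27 members had it in common, and no share over all genes is given at that setting. In 5 of the 21 the leading transcript by TPM was not typed protein-coding in either library, where the share over all genes was 25.0%. Over the family, protein-coding transcripts held 79.5% of the TPM in replicate 1 and 72.9% in replicate 2, retained-intron transcripts 12.4% and 20.6%, and transcripts typed for nonsense-mediated decay 6.70% and 5.94%.

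**Figure D4:**
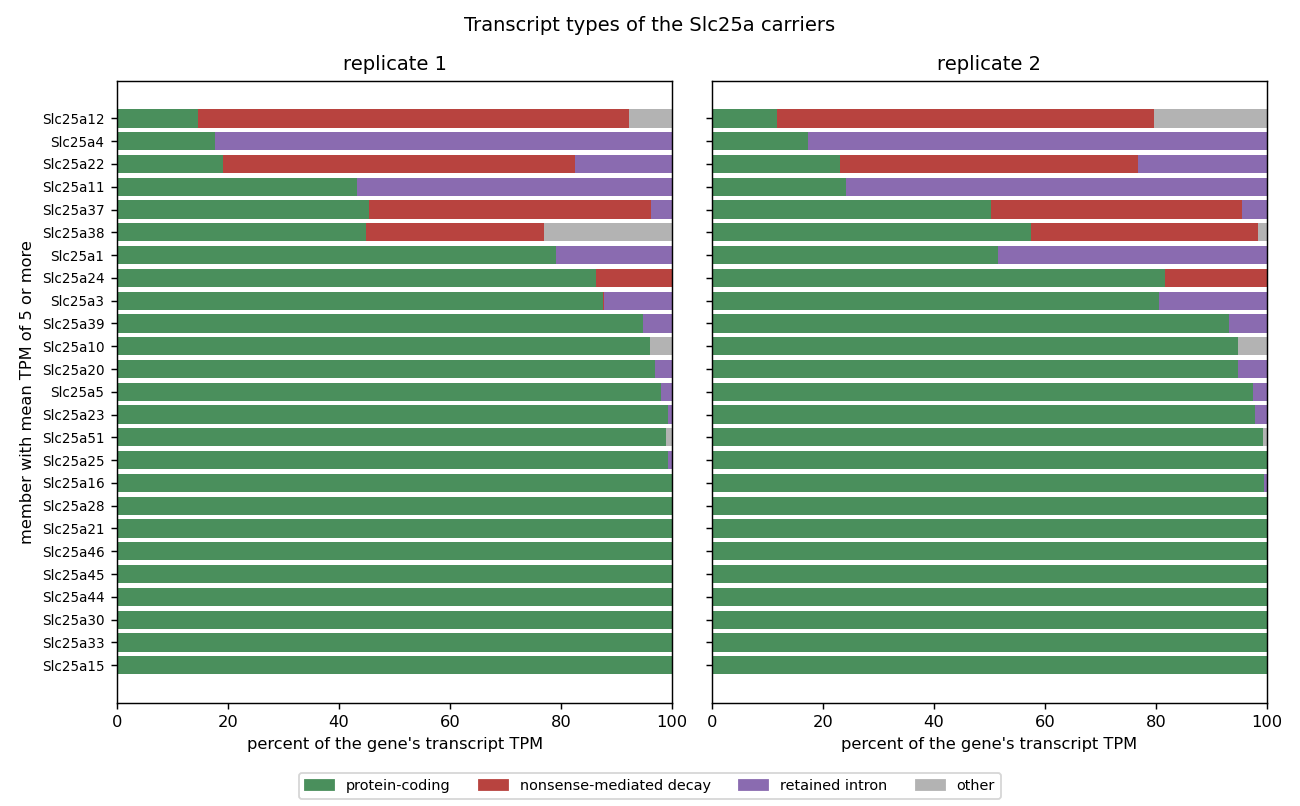
Percent of each gene's transcript TPM by annotated transcript type, for 25 carriers at a mean of 5 TPM or more, with replicate 1 on the left and replicate 2 on the right. Slc25a12, Slc25a4, Slc25a22, Slc25a11 and Slc25a37 stand at the top with coding transcripts averaging under 50%, while in most others the bar is nearly all coding.

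The libraries gave similar levels for the carriers. Of 26 members at a mean of 5 TPM or more, 0 were over 2-fold apart with separate intervals; among all 7653 protein-coding genes at that level, 1.03% were higher in replicate 1 and 0.340% higher in replicate 2 by this rule. The farthest apart were Slc25a12, 0.65 higher in replicate 1 on the log2 CPM scale, Slc25a5, 0.58 higher in replicate 1, and Slc25a23, at -0.54 and so higher in replicate 2. The median size of the difference at that level was 0.141 for the carriers and 0.194 for all genes. Of 41 members that passed the filter on low counts, 27 were higher in replicate 1 and 14 in replicate 2, with a median of 0.13. Of 12402 protein-coding genes that passed it, 6311 were higher in replicate 1 and 6091 in replicate 2, with a median of 0.01. Summed granulocyte and monocyte markers were also higher in replicate 1, at 32577 TPM against 18703 TPM in replicate 2, and erythroid markers lower, at 469 TPM against 573 TPM; their part in the carriers' differences was not tested. With no limit on level, 3 low members were apart: Slc25a43 (93 and 29 counts), Slc25a27 (36 and 72 counts) and Slc25a2 (12 and 34 counts). No share over all genes is given at that setting.

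**Figure D5:**
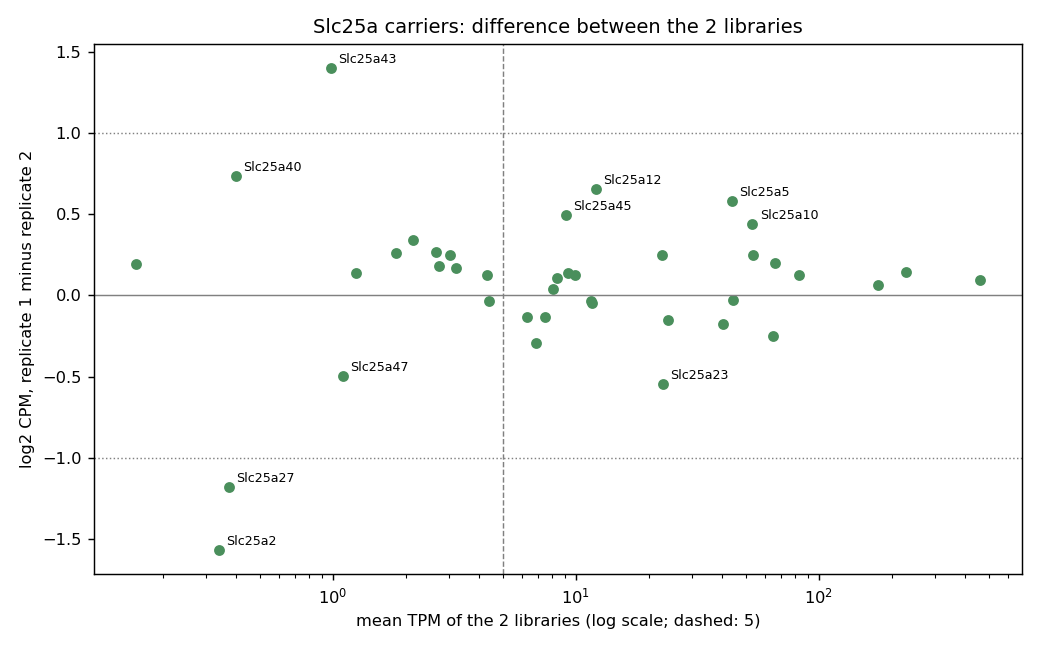
Difference in log2 CPM between replicate 1 and replicate 2 against mean TPM on a log axis for 40 of the carriers that passed the filter; dotted lines mark 2-fold, the dashed line a mean of 5 TPM, and members over 0.4 apart are named. To the right of the dashed line all points lie between -0.54 and 0.65, and the 3 points beyond the dotted lines are low members.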

How the data were processed

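Each library has a gene and a transcript table. Per the labels the assembly is mm10, and a text file with each sample names GENCODE M4; the sources used here do not give the aligner, the quantification program or the strand handling. Per the file headers, the deposited expected counts share reads that match several genes, the deposited TPM values are scaled per length to 1000000, the deposited FPKM values are scaled to length and depth, and the deposited percent columns split a gene among its transcripts. The TPM intervals are the authors', belong to the posterior mean and cover quantification error within a library; the TPM itself lay outside them for 5 members in replicate 1 and 6 in replicate 2, Slc25a3 included.

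Symbols, types and GRCm38 coordinates came from GENCODE M21, in which 42462 of 43346 identifiers were found once versions were dropped. Rows with numeric identifiers (26248) and spike-ins (97) were left out; they held 1 count in replicate 1 and 0 in replicate 2. Expected counts were rounded, scaled by TMM in edgeR 4.0.16 (R 4.3.3; factors 0.98 and 1.02), filtered with filterByExpr and turned into log2 CPM with a prior count of 2; size factors from DESeq2 1.42.0 were an alternative. The TMM scaling and log2 CPM alone were tested on simulated counts, for genes well above the filter. The simulated spread was smaller than that of these libraries, and the TPM rules were not covered. Pair ratios used log2(TPM + 0.01). A pair was counted when both libraries had the same sign, the mean log2 exceeded 1 in size and the intervals were separate in each. With protein-coding transcripts alone the interval condition was left out. A difference between libraries needed a mean of 5 TPM, over 2-fold and separate intervals. Shared 50-base words were counted over GENCODE M21 transcripts, which also gave the printed sequences. All members could be named; the values of 1 are not reported here, though it enters every count over members. Members, lists, pairs and rules were chosen with earlier results of these data known. One listed symbol, Fdx2, was not matched. Tables were handled in Python 3.11.15 with pandas 2.3.3 and numpy 2.4.6.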

Additional observations from a re-analysis of the deposited data

How the results depend on the processing

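The count of detected members ran from 26 at a threshold of 5 TPM to 37 at 0.5 TPM, and was 35 and 36 without replicate 1 and without replicate 2. No share over all protein-coding genes is given at these settings. The median of log2(mean TPM + 1), 3.08, was 2.83 in FPKM, 2.91 with a pseudocount of 0.1 and 3.65 over detected members alone. The family's share, 0.154% of TPM, was 0.205% of counts not corrected for length. With no limit on level 3 members were apart between libraries, a setting for which no share over all genes is given. The count was 0 by every other rule tried. The median difference between libraries, 0.13, was 0.0093 on log2(TPM + 1), where all genes had -0.07. Pairs with a leader numbered 8 to 11 of 14, where the 11 came from protein-coding transcripts alone, without the interval rule. Protein-coding transcripts alone, chosen after seeing the data, turned the sign of 3 log2 ratios: 2.45 for Slc25a5/Slc25a4, 0.20 for Slc25a13/Slc25a12 and -1.25 for Slc25a11/Slc25a10. Counts not corrected for length turned the sign of 3 ratios that had no leader: -0.64 for Slc25a38/Slc25a37, -0.95 for Slc25a11/Slc25a10 and 0.76 for Slc25a36/Slc25a33. Slc25a16/Slc25a42 fell under 2-fold in counts, at 0.25, and Slc25a15/Slc25a29 with a pseudocount of 1, at 0.96. Causes were not tested. Depth limits the lowest members, Slc25a18, Slc25a34, Slc25a41 and Slc25a48, which had 0 to 5 counts in each library. No paired analysis was possible because there is only 1 group.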
